A study of Rattus norvegicus with 6 samples.

Results

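The receptors of circulating hormones and cytokines examined here were set by a list of 10 gene symbols, and a symbol counted as a member when a row of the deposited table of called genes carried that name. This gave 5 of the 10 symbols, out of 29479 gene identifiers counted: Insr, the insulin receptor; Npr2 and Npr3, the natriuretic peptide receptors B and C; Avpr1a, the V1a vasopressin receptor; and Ednra, the endothelin receptor type A. Prlr, Lepr, Ghr, Ednrb and Npr1 were not matched by name and are not analysed here. The 3 receptors of the cytokine family on the list (Prlr, Lepr and Ghr) are among these, so the members are peptide hormone receptors only.

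RNA came from whole lateral ventricular choroid plexuses of untreated Sprague-Dawley rats, at embryonic day 15 (E15) and from non-pregnant adults aged 6 weeks. Each library was made from a pool of 10 animals, with 3 pools at each age, and no allele or agent separated the ages. Vessels, stroma and blood cells were therefore in each pool together with the epithelium. The comparison asks which receptors of the plexus differ in transcript level between the embryo and the adult. Every gene that can be named in these data had already been called between the ages by the authors on the same pools, so the shares of genes called below are raised by that selection.

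The choroid plexus is a vascular tissue covered by an epithelium that secretes the cerebrospinal fluid, and its vessels lack the tight barrier of other brain capillaries, which exposes its cells to circulating hormones. Peptide hormones act there through receptors of several designs. The insulin receptor is a tyrosine kinase, NPR2 is itself a guanylyl cyclase that makes cGMP when C-type natriuretic peptide binds, NPR3 binds and clears all natriuretic peptides, and the V1a and type A endothelin receptors couple to Gq proteins, phospholipase C and the release of calcium. Vasopressin and the natriuretic peptides are known as regulators of fluid secretion by the plexus, and endothelins as constrictors of vessels.

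To show the regions from which these transcripts start, the 250 bases before the listed start of each gene are given from the RefSeq promoter table (build GRCr8), which held 4 of the 5 members. Each is written 5′ to 3′ on the strand of its gene, and capitals mark a match to a searched motif. The windows are Insr at chr12:6128804-6129053 (minus strand), Npr3 at chr2:62658766-62659015 (minus strand), Avpr1a at chr7:59999493-59999742 (plus strand) and Ednra at chr19:47137674-47137923 (plus strand).
Insr: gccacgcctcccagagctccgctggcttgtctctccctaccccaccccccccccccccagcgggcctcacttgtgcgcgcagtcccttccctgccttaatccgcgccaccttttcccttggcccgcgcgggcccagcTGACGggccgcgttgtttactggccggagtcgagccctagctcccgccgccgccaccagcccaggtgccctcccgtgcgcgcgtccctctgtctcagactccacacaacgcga
Npr3: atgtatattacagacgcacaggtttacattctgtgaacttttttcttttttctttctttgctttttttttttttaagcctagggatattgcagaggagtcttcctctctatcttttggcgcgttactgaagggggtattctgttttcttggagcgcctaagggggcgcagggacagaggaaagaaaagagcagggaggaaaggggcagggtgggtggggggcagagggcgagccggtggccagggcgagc
Avpr1a: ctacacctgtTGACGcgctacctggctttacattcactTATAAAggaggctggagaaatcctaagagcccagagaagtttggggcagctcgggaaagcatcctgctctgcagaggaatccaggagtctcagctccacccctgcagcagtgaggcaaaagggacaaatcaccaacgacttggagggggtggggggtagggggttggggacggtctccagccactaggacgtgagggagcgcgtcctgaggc
Ednra: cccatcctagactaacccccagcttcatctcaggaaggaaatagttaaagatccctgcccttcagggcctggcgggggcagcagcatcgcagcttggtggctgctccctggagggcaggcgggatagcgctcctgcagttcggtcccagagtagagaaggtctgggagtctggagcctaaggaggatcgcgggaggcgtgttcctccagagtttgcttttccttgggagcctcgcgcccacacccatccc

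The Insr window was the richest of the 4 in GC, at 71.2% with 24 CpG dinucleotides. The windows of Ednra (61.2%, 10 CpG), Avpr1a (58.0%, 8 CpG) and Npr3 (49.6%, 8 CpG) followed, where the median of 33458 RefSeq windows of this length was 51.2% (quartiles 44.0% and 60.0%) with 5 CpG (quartiles 2 and 15). Of the motifs searched on both strands, the TATA box TATAAA was found in the Avpr1a window alone and in 12.9% of all windows. The CRE core TGACG was found once in the Insr and once in the Avpr1a window, and in 18.2% of all windows. The GC box GGGCGG (30.5% of all windows), the CCAAT box CCAAT (34.0%) and the E-box CACGTG (5.59%) were found in none of the 4, and no 2 matches overlapped. For Insr, Ednra and Npr3 the listed start lies inside the annotated gene, 472, 564 and 1732 bases from its outer end, so another annotated transcript starts further upstream.

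Library totals were 17875089 to 18901272 counts at E15 and 18421472 to 19204440 in the adult. Normalised counts are read counts divided by the library total and a TMM factor, which was 1.32 to 1.33 at E15 and 0.735 to 0.773 in the adult. Levels of different genes are not compared, since counts were not divided by transcript length. Of 16 epithelial marker genes listed, only those that the authors had called could be found, and all 15 found were higher in the adult. Their summed normalised count was 483265 to 570705 at E15 and 5237768 to 6103048 in the adult. The marker Rdh5 was at 0 counts at E15. E15 replicate 1 stood apart from the other pools of its age (Spearman correlation across genes 0.979 and 0.982, against 0.996 between the other two and 0.986 to 0.988 among adult pools). Its developing neuron markers summed to 5469 normalised counts against 1717 and 3983 in the other E15 pools. Adult replicate 1 had the highest sum of oligodendrocyte markers, 14437 against 6167 and 3369.9. Among the adult pools, replicate 2 had the highest sums of astrocyte, developing neuron and neural progenitor markers, given below with Oxt.

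All 5 receptors differed between the ages in the quasi-likelihood test of edgeR, 4 being enriched in the adult and 1 at E15, at a Benjamini-Hochberg adjusted p under 0.05. Of all 16643 genes tested 64.0% were called, 34.7% as higher at E15 and 29.3% as higher in the adult, and these shares were 92.0%, 50.3% and 41.7% among the 10496 tested genes that the authors had called. Insr, Npr2, Npr3 and Avpr1a were enriched in the adult 2.54-, 2.08-, 3.11- and 6.09-fold, and Ednra was enriched 11.9-fold at E15. The normalised counts of the ages did not overlap for any of the 5, as for 70.1% of all genes tested and 93.9% of those the authors had called. Without E15 replicate 1 the log2 fold changes were -1.32 for Insr, -0.91 for Npr2, -1.62 for Npr3, -3.02 for Avpr1a and 3.42 for Ednra, all still called, where with all pools they were -1.34, -1.05, -1.64, -2.61 and 3.57. The summed epithelial markers differed in the direction of the 4 adult receptors, and their part in the results was not tested. In a whole tissue, fewer cells of a type and less RNA per cell cannot be told apart.

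**Figure D1:**
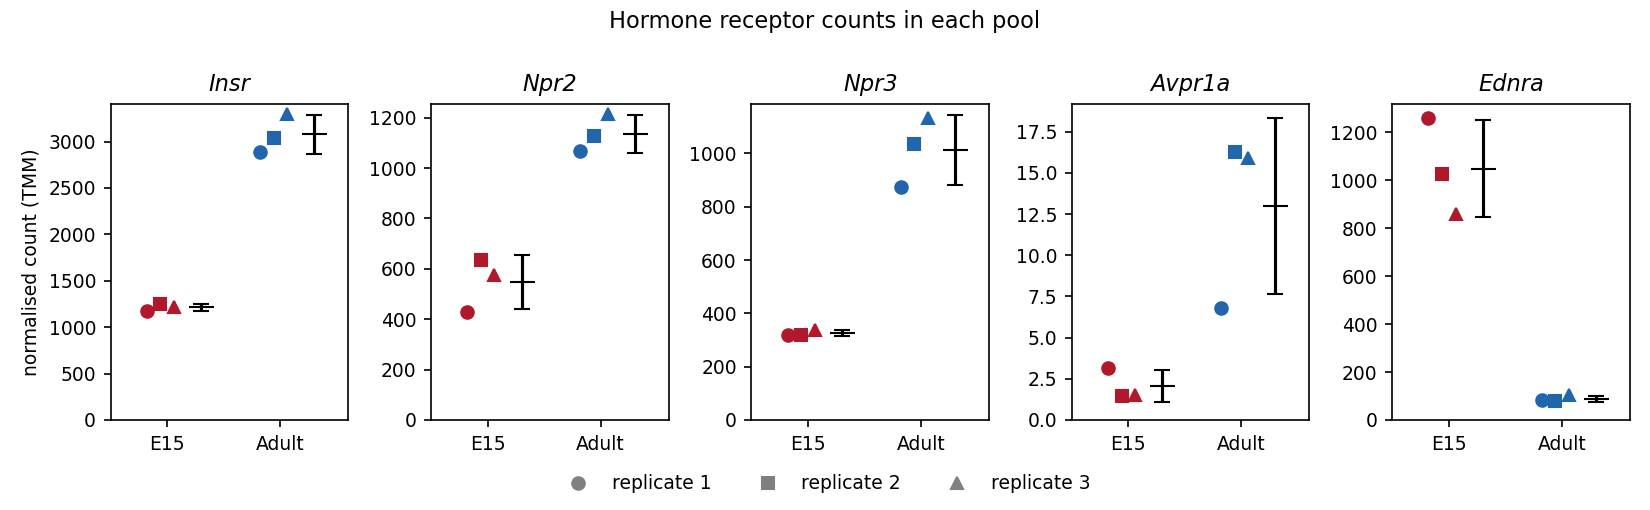
Normalised counts (TMM, linear scale from 0, a separate scale for each gene) of the 5 receptors in each pool at E15 (red) and in the adult (blue), with symbols for the replicate number and bars for the mean ± SD of 3 pools. The adult points lie above the E15 points for Insr, Npr2, Npr3 and Avpr1a and below them for Ednra.

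The insulin receptor, Insr (ENSRNOG00000029986), had 1169, 1249 and 1218 normalised counts in E15 replicates 1, 2 and 3, against 2891, 3038 and 3301 in those of the adult. The pools of each age lay close together and the ages did not overlap. Mean counts were 1212 ± 40.3 (SD, n = 3 pools) for E15 and 3077 ± 208 for adults, a log2 fold change (E15 over adult) of -1.34 with a standard error of 0.10 and an adjusted p of 2.82e-06 in edgeR. Of all genes tested 14.6% had a lower log2 fold change. This was the receptor with the least spread at E15, a coefficient of variation of 3.32%, and 6.74% in the adult.

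Genes that act below the insulin receptor mostly went the other way. Of the 39 genes listed for insulin receptor signalling 22 were tested, of which 18 were higher at E15, 3 were higher in the adult and 1 was not called, with a median log2 fold change of 1.13. The median was 0.14 over all genes tested and 0.74 over the genes of the authors' table. Of the latter, 50.3% were higher at E15 and 41.7% in the adult. Grb10, an adaptor that binds the insulin receptor and restrains it, had 12429 ± 711 normalised counts at E15 against 248 ± 92.5 in adults, 50.01-fold (adjusted p = 1.17e-07). The E15 pools had 13124, 12461 and 11702 normalised counts of it.

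The insulin receptor substrates, which dock the signalling enzymes, were likewise enriched at E15. Irs4 had 250, 369 and 246 read counts at E15, against 0, 16 and 1 in adults, 29.3-fold (adjusted p = 0.000223), with most of its adult counts in adult replicate 2. Without that pool its log2 fold change, then against 0 and 1 adult read counts, was 8.09 in place of 4.87. Irs1 (2.15-fold) and Irs2 (3.30-fold) were higher at E15 in all 3 pools. Of the AKT kinases, Akt1 was 1.93-fold higher at E15 and Akt2 was 1.89-fold higher in the adult, 773 ± 135 against 1464 ± 75.4 normalised counts (adjusted p = 0.000365), a call that was lost with total counts alone (0.498). Sos1, an exchange factor of RAS, was 1.52-fold higher in the adult (adjusted p = 0.00165), and its direction turned when libraries were scaled by total counts alone. Under that scaling 19 genes of the list were higher at E15 and none in the adult.

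Both natriuretic peptide receptors found were enriched in the adult. Npr3 (ENSRNOG00000019184), the clearance receptor, had 318, 319.9 and 339 normalised counts at E15, against 873, 1035 and 1133 in adults. The E15 values were nearly equal and every adult value lay far above them, adult replicate 1 being the lowest of its age. The means were 326 ± 11.9 and 1014 ± 131, with a log2 fold change of -1.64 (SE 0.13, adjusted p = 4.68e-06, edgeR), and 11.3% of all genes tested had a lower one.

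Npr2 (ENSRNOG00000015991), the guanylyl cyclase receptor for C-type natriuretic peptide, had 429.9, 636 and 577 normalised counts at E15, against 1067, 1126 and 1216 in adults. The lowest value was that of E15 replicate 1, and the ages did not overlap. The means were 548 ± 106 and 1137 ± 75.2, with a log2 fold change of -1.05 (SE 0.16, adjusted p = 0.000256). This was the smallest fold change of the 5 receptors and the only one whose call was lost under any of the scalings tried. As read counts the values were 545, 857 and 763 at E15, against 782, 900 and 919 in adults, and as CPM they were 30.5, 45.3 and 41.2 against 42.2, 46.9 and 49.9, so on both of these scales the ages overlapped. Scaled by total counts alone, the log2 fold change was -0.25 with an adjusted p of 0.189.

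The ratio of Npr3 to Npr2 within a library does not depend on scaling. Npr3 had 0.740, 0.503 and 0.589 counts per Npr2 count at E15, against 0.819, 0.919 and 0.931 in adults. The adult ratios were all above the E15 ratios, the nearest being those of the pools numbered 1. On the log2 scale the means were -0.73 ± 0.28 and -0.17 ± 0.10, a difference (E15 minus adult) of -0.56 with an exact two-sided permutation p of 0.1, the smallest that 3 against 3 pools can give. This was the 1 ratio of the 5 planned that could be formed, and it compares transcript counts that include the unequal lengths of the genes.

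Genes listed for the signalling of cGMP, the second messenger of NPR2, were largely higher at E15. Of the 20 listed genes 15 were tested, 11 being higher at E15, 3 in the adult and 1 not called, with a median log2 fold change of 2.76. Among the tested genes that the authors had called, 50.3% were higher at E15 and 41.7% in the adult, with a median of 0.74. Among called genes with a mean of at least 100 normalised counts at the higher age, 2 phosphodiesterases led the direction of E15. These were Pde2a (606 ± 78.5 against 28.9 ± 16.6 normalised counts, 20.7-fold, adjusted p = 2.15e-06) and Pde3b (376 ± 84.1 against 32.3 ± 5.16, 11.6-fold, adjusted p = 1.7e-06). The cGMP-dependent kinase Prkg1 had 56, 69 and 56 read counts at E15, against 3, 5 and 0 in adults, 12.8-fold higher at E15 in the fit, with a log2 fold change of 3.67 that was 4.40 without adult replicate 2 and 3.09 without adult replicate 3. Of the subunits of soluble guanylyl cyclase, Gucy1a2 had a log2 fold change of -0.77 and was not called (adjusted p = 0.0879, edgeR). Its partners in the list Gucy1a3 (8.09-fold) and Gucy1b3 (5.47-fold) were higher at E15. So were the summed markers of mural cells (7299.8 to 10027 against 2411 to 2717 normalised counts) and of endothelium (11161 to 17018 against 1392 to 2134), whose part in these changes was not tested. Pde9a, a phosphodiesterase selective for cGMP, went with Npr2 and Npr3: it had 239 ± 4.08 normalised counts at E15 against 849 ± 59.3 in adults, 3.56-fold higher in the adult (adjusted p = 1.16e-06). Pde6d was 1.55-fold higher in the adult (adjusted p = 0.000914), and its direction turned under scaling by total counts alone.

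The vasopressin receptor Avpr1a (ENSRNOG00000004400) was at the limit of what this depth can measure. It had 4, 2 and 2 read counts at E15, against 5, 13 and 12 in adults. Every adult count was above every E15 count, with adult replicate 1 just above E15 replicate 1. Normalised, the means were 2.05 ± 0.957 and 13.0 ± 5.35, with coefficients of variation of 46.7% and 41.1%. The log2 fold change was -2.61 (SE 0.71, adjusted p = 0.00945), and 5.02% of all genes tested had a lower one. The ratio of the summed counts, corrected for library size, was 6.46 with an exact 95% interval of 2.89 to 16.3, which covers counting error only.

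Vasopressin and oxytocin, the peptides that bind this receptor, were themselves near the lowest countable level. Avp had 0, 1 and 0 read counts at E15, against 1, 8 and 12 in adults, a ratio of 36.2 in favour of the adult with an exact 95% interval of 5.81 to 1495 (adjusted p = 0.00914). Without E15 replicate 2, the pool with the only E15 count, the log2 fold change of Avp, then against 0 counts and set in part by the prior count, was -6.17 in place of -4.63, and without adult replicate 3 the gene was too low to be tested. Oxt had 0 counts in every E15 pool, against 0, 23 and 1 in adults, so that a single pool held nearly all of it and the ages overlapped. Against a floor of 3 counts over the E15 pools, the adult counts summed over pools gave a ratio of at least 13.8, which rests on adult replicate 2. The fitted log2 fold change, against 0 counts, was -6.42 (adjusted p = 0.0367, edgeR). Without adult replicate 2 the gene was too low to be tested. The Oxt call was lost without E15 replicate 2 (adjusted p = 0.0543) or E15 replicate 3 (0.063), with limma-voom (0.0829), with total counts alone (0.0596) and with total counts without the 10 highest genes (0.0505). Adult replicate 2, the pool with 23 Oxt counts, also had the highest sum of astrocyte markers, 6027 normalised counts against 2762 and 2359. Its sums of developing neuron (571 against 165 and 152) and neural progenitor markers (2160 against 1184 and 1316) were the highest of the adult pools too. The part of these cells in the result was not tested.

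The Gq pathway and the proteins that switch such receptors off were again mostly higher at E15, with one large exception. Of 29 listed genes 20 were tested, 15 being higher at E15, 4 in the adult and 1 not called, with a median log2 fold change of 1.31. The genes that the authors had called were higher at E15 in 50.3% and in the adult in 41.7%, with a median of 0.74. Itpr1, the type 1 receptor for inositol trisphosphate that releases calcium from the endoplasmic reticulum, had 2383, 2441 and 2171 normalised counts at E15, against 25558, 25129 and 28908 in adults. It was thus enriched 11.4-fold in the adult (adjusted p = 1.92e-08), while Itpr3, another receptor of this family, was 7.50-fold higher at E15. Rgs3, which speeds the inactivation of G proteins, was 5.26-fold higher in the adult (1005 ± 78.4 against 5285 ± 278, adjusted p = 1.18e-07).

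Other regulators of G protein signalling went the opposite way. Rgs16 had 135, 135 and 147 read counts at E15, against 0, 1 and 0 in adults, a ratio of 242 with an exact 95% interval of 43.2 to 9589 (adjusted p = 3.02e-06). Its log2 fold change, then against 0 counts, was 9.84 in place of 7.57 without adult replicate 2, the pool with the only adult count. Rgs5, a gene of vascular mural cells, was 7.49-fold higher at E15. Prkce, a protein kinase C isoform, was 8.90-fold higher at E15 (187 ± 11.8 against 20.8 ± 14.4 normalised counts, adjusted p = 0.000199). Gnaq, the alpha subunit of Gq itself, was 2.15-fold higher at E15.

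The endothelin receptor Ednra (ENSRNOG00000012721) was the 1 receptor enriched at E15. It had 1259.8, 1026 and 859 normalised counts at E15, against 81.9, 78.8 and 103 in adults. E15 replicate 1 was the highest, and the ages were far apart. The means were 1048 ± 201 and 88.0 ± 13.3, with a log2 fold change of 3.57 (SE 0.19, adjusted p = 3.43e-07), and 8.66% of all genes tested had a higher one.

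The endothelins that it binds were at low counts. Edn1 had 76, 77 and 60 read counts at E15, against 4, 12 and 2 in adults, 6.85-fold higher at E15 (adjusted p = 0.00123), with a log2 fold change of 2.78 that rose to 3.67 without adult replicate 2. Edn3 had 63, 130 and 119 read counts at E15, against 0, 1 and 1 in adults, a ratio of 90.6 with an exact 95% interval of 24.9 to 751 (adjusted p = 1.95e-05). Both thus changed in the direction of Ednra, while Ednrb, another endothelin receptor, was not matched by name. Edn2 had 0, 2 and 0 read counts at E15, against 0, 10 and 13 in adults, a ratio of 19.8 towards the adult (exact 95% interval 4.89 to 173, adjusted p = 0.0287) in groups that overlapped. The Edn2 call was lost without E15 replicate 3 (adjusted p = 0.0857), without adult replicate 2 (0.0641), without adult replicate 3 (0.101), with limma-voom (0.101) and with total counts alone (0.0633). Without E15 replicate 2, which held both E15 counts, its log2 fold change, then against 0 counts, was -6.30 in place of -4.01.

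Of the 14 ligand genes listed for the 10 receptors, 6 had a name and 5 were tested, of which Edn1 and Edn3 were higher at E15 and Avp, Oxt and Edn2 in the adult. Their median log2 fold change was -4.01, and -3.78 with Oxt at its bound. Nppa, atrial natriuretic peptide, had 7 read counts in adult replicate 2 and 0 in every other pool, and was too low to be tested. Under scaling by total counts alone Avp was the ligand still called as higher in the adult.

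Enzymes that cut these peptides followed the endothelin receptor for the most part. Ece1, which makes the active endothelins from their precursors, had 1782, 2462 and 2099 normalised counts at E15, against 132, 252 and 148 in adults, an 11.9-fold enrichment at E15 (adjusted p = 1.42e-06). Mme, neprilysin, which degrades natriuretic peptides and endothelins, was 8.19-fold higher at E15 (947 ± 240.0 against 115 ± 32.0 normalised counts, adjusted p = 4.95e-06). Corin, the protease that activates atrial natriuretic peptide, had 13, 14 and 11 read counts at E15, against 2, 2 and 0 in adults (5.23-fold, adjusted p = 0.0296). Its call was lost without adult replicate 3 (0.0554), E15 replicate 2 (0.0795) or E15 replicate 3 (0.0634), and with the replicate block (0.0756). Furin, a proprotein convertase, was 1.94-fold higher in the adult (1745 ± 339 against 3386 ± 359.9, adjusted p = 0.000463), and it was not called under scaling by total counts alone (adjusted p = 0.418). These were the 4 tested genes of 7 on the list, and their median log2 fold change was 2.71. Over the genes of the authors' table the median was 0.74, with 50.3% higher at E15.

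Markers of vascular and stromal cells also differed between the ages, where only genes that the authors had already called could be counted. The lists held 12 mural, 18 endothelial, 12 stromal and 10 proliferation genes. The sums of marker genes at E15 and in the adult were 7299.8 to 10027 against 2411 to 2717 normalised counts for mural cells (8 of 9 tested genes higher at E15, 1 in the adult), 11161 to 17018 against 1392 to 2134 for endothelium (15 of 15 higher at E15) and 44484 to 59747 against 17294 to 18359 for stroma (8 of 11 higher at E15, 3 in the adult). Proliferation genes were higher at E15 in 8 of 8, with sums of 15761 to 20774 against 583 to 773. The part of these cells in the fold change was not tested.

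**Figure D2:**
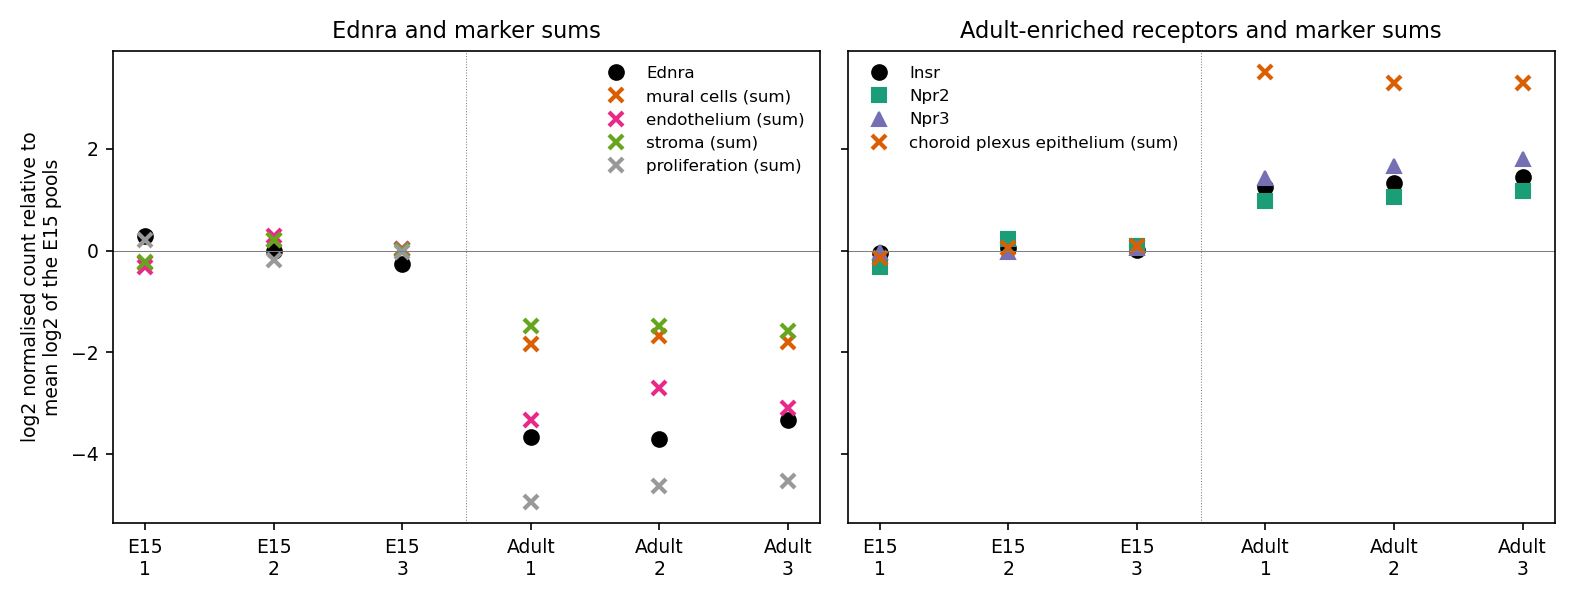
Log2 normalised counts in each pool, relative to the mean log2 value of the 3 E15 pools, of Ednra with summed markers of mural cells, endothelium, stroma and proliferation (left) and of Insr, Npr2 and Npr3 with the summed epithelial markers (right). The fall of Ednra in the adult lies between that of the endothelial and of the proliferation sums, and the rise of the 3 adult receptors lies below that of the epithelial sum.

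The remaining marker lists, limited in the same way to genes that the authors had called, moved as follows. They held 12 developing neuron, 8 neural progenitor, 12 erythroid, 8 oligodendrocyte, 7 astrocyte, 6 adipocyte and 11 macrophage genes. Developing neurons (11 of 11 genes), neural progenitors (6 of 6) and erythroid cells (10 of 10) were higher at E15, with median log2 fold changes of 5.32, 4.26 and 4.74. Of the adult direction were 5 of 8 oligodendrocyte genes (2 higher at E15, median -3.10), 3 of 4 astrocyte genes (1 higher at E15, median -3.71) and both adipocyte genes found (median -5.90). Macrophage markers were split, with 3 higher at E15, 3 in the adult and 1 not called. The medians of the epithelial, endothelial, mural, stromal and proliferation lists were -3.51, 3.11, 2.56, 2.53 and 5.53.

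Receptors related to the members were present in small numbers by name, 12 of 31 listed, all of which were tested. They were higher at E15 in 6, in the adult in 4 and not called in 2, with a median log2 fold change of 2.002. Lifr, the receptor subunit for leukaemia inhibitory factor, had 501 ± 33.6 normalised counts at E15 against 111 ± 19.6 in adults (4.49-fold, adjusted p = 4.06e-06). Epor, the erythropoietin receptor, was 8.98-fold higher at E15, as were the summed erythroid markers (261510.5 to 379339 against 8880.5 to 12787 normalised counts), whose part in the result was not tested. Insrr, a receptor related to Insr, had 13, 13 and 10 read counts at E15, against 0, 0 and 3 in adults (ratio 6.97, exact 95% interval 2.20 to 35.4, adjusted p = 0.0406). The Insrr call was lost with DESeq2 (adjusted p = 0.0582) and with the replicate block (0.0828). It was also lost without any 1 library (0.054 to 0.105) other than adult replicate 3, the pool with all its adult counts. Il10rb (3.71-fold, adjusted p = 6.87e-06) and Il11ra1 (1.93-fold, adjusted p = 0.000866) were higher in the adult, and Il11ra1 was not called under scaling by total counts alone (adjusted p = 0.478).

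The JAK-STAT genes, which carry the signal of the cytokine receptors that were not matched by name, were the 1 large list on the side of the adult. Of 32 listed genes 14 were tested, 10 being higher in the adult and 4 at E15, with a median log2 fold change of -1.16. Among the tested genes that the authors had called, 41.7% were higher in the adult and 50.3% at E15, with a median of 0.74. Stat4 had 846, 697 and 749.7 normalised counts at E15, against 5387, 5673 and 6036 in adults, 7.46-fold (adjusted p = 6.14e-08). Cish, an inhibitor induced by STAT5, was 7.22-fold higher in the adult (89.1 ± 19.3 against 644 ± 102, adjusted p = 1.85e-06). The transcription factors Stat5a (3.69-fold), Stat5b (2.56-fold), Stat2 (2.41-fold) and Stat3 (2.09-fold) and the inhibitors Socs2 (2.41-fold) and Socs5 (2.39-fold) were higher in the adult too, and Socs2 was not called under scaling by total counts alone. Socs7 (1.57-fold, adjusted p = 0.00487) and Pias4 (2.61-fold, adjusted p = 0.000221), both negative regulators of such signalling, were higher at E15. Under scaling by total counts alone 7 of the list were higher in the adult and 5 at E15, Jak1 having turned.

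Over all 7 pathway lists, counting each gene once, 92 genes were tested of 172 listed. Of these 59 were higher at E15, 28 in the adult and 5 were not called. Scaled by total counts alone the split was 62 and 14, and by total counts without the 10 highest genes it was 60 and 19. Every one of these pathway genes had been called by the authors. Among the 10496 tested genes that the authors had called, 5276 (50.3%) were higher at E15 and 4379 (41.7%) in the adult. For all 16643 genes tested the numbers were 5773 at E15 and 4879 in the adult. Under total counts alone they were 9799 and 2292, and without the 10 highest genes 8071 and 3196.

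**Figure D3:**
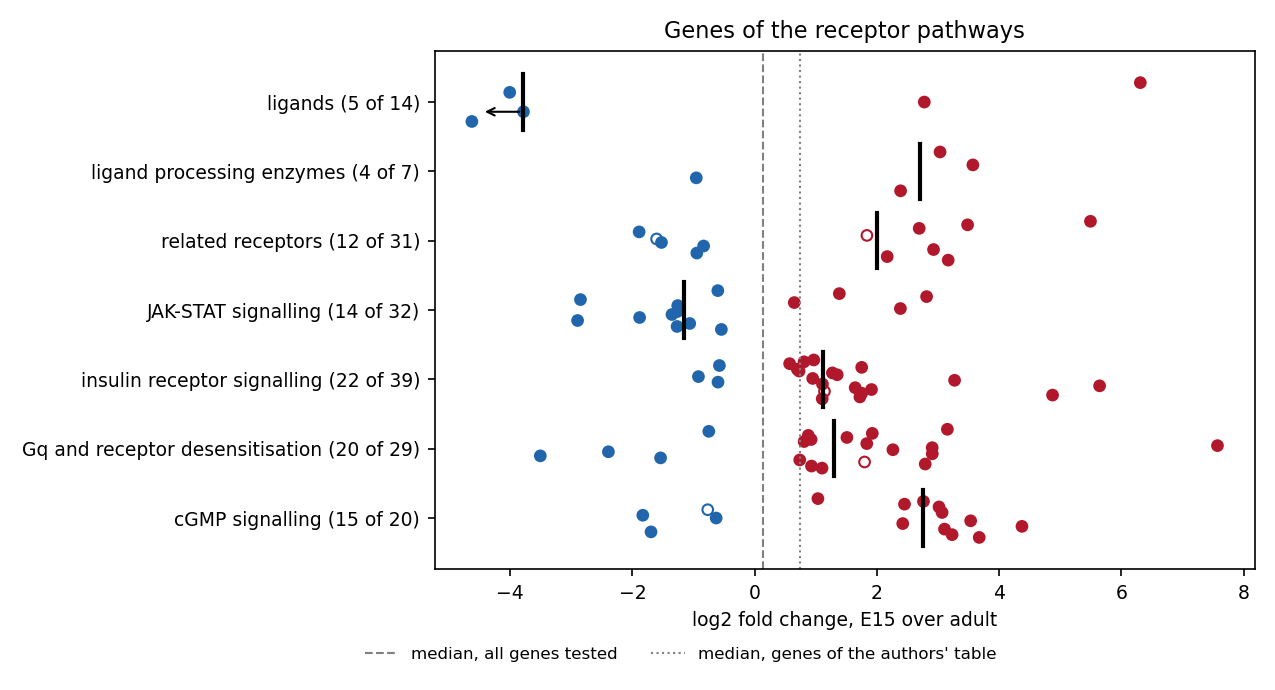
Log2 fold changes (E15 over adult) of the tested genes of each pathway list, with the number tested of the number listed, filled symbols for genes called and open symbols for genes not called, red higher at E15 and blue higher in the adult. Thick bars mark the median of a list, the grey lines the medians of all genes tested (0.14) and of the genes of the authors' table (0.74), and Oxt, at 0 counts at E15, is drawn at its bound with an arrow. The ligand and JAK-STAT medians lie on the adult side and the other 5 on the E15 side.

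Scaling moved the fold changes of all genes together. Over the genes tested, the median log2 fold change stood at 0.14 with TMM and 0.95 with total counts alone. Relative to this median the log2 fold changes of Insr, Npr2, Npr3 and Ednra were -1.48, -1.19, -1.78 and 3.43 under both scalings, and that of Avpr1a was -2.75 and -2.78. A change of library factors alone shifts the log2 fold changes of all genes by nearly the same amount. This agreement was therefore fixed in advance and lends the calls no support. Unadjusted for the median, total counts alone gave -0.54 for Insr (adjusted p = 0.00132, edgeR), -0.25 for Npr2 (0.189), -0.83 for Npr3 (0.000533), -1.83 for Avpr1a (0.0421) and 4.38 for Ednra (1.43e-07). The direction of each of the 5 was thus kept, and the call of Npr2 was lost.

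**Figure D4:**
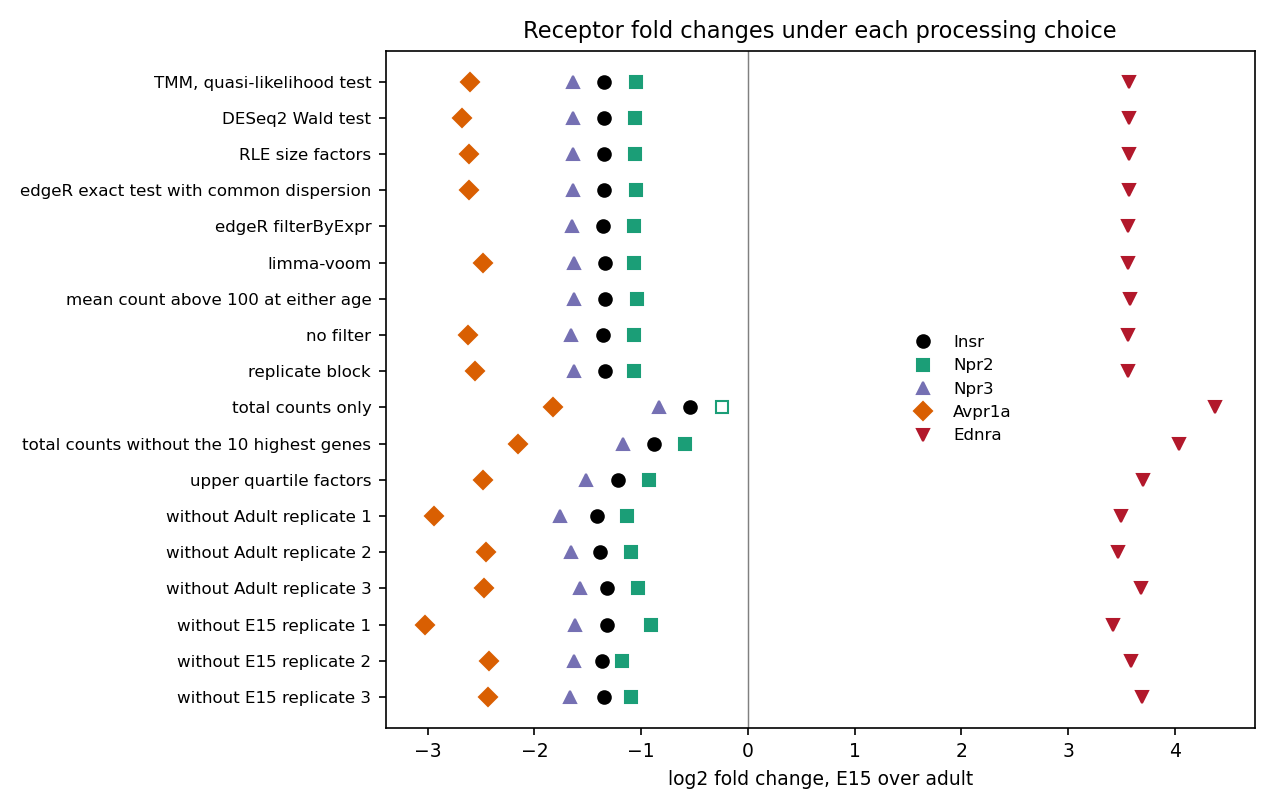
Log2 fold changes (E15 over adult) of the 5 receptors under the TMM fit and each alternative setting, with filled symbols for an adjusted p under 0.05 and an open symbol where it was not. Each receptor keeps its side of 0 in every row, Npr2 under total counts alone is the open symbol (-0.25), and Avpr1a has no value under the 2 stricter filters, where it was not tested.

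The genes with the pattern most like each receptor were taken as those with the smallest Euclidean distance between centred log2 normalised counts over the 6 libraries. The search covered 6851 named genes with a mean of at least 100 normalised counts. For Insr these were Ggcx, gamma-glutamyl carboxylase (distance 0.0792), with means of 1139.8 and 2937 normalised counts at E15 and in the adult, and Tor1aip1 (0.0821). A gene close to Npr2 was Nlrx1 (0.0977), with means of 502 and 1028. The nearest to Npr3 were Insig1, a regulator of cholesterol synthesis (0.178), and F3, tissue factor (0.185). Ednra and Avpr1a had less close neighbours, Nr4a2, an orphan nuclear receptor, at 0.353 and an unnamed transcript listed as D4A065_RAT at 0.317 for Ednra, and Cycs, cytochrome c, at 0.473 and LOC100361841 at 0.629 for Avpr1a. Avpr1a itself lay far below that level, so it was compared with no gene of its own level. These distances describe 6 libraries of 2 ages and were not tested.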

How the data were processed

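The deposited values are whole-number read counts per Ensembl gene, without normalization. Per the paper's methods, the authors made libraries with the Illumina mRNA-Seq kit (strand not stated, so antisense genes cannot be told apart), mapped trimmed reads to the rat genome of Ensembl release 61 (Bowtie 0.12.7), kept unique matches and counted them with HTSeq 0.4.7p4 (union). A second table by the authors holds edgeR 2.4.0 log2 fold changes, log2 abundances and p-values of an exact test with a common dispersion for the 10653 genes they called. Its names alone were used, for 10093 identifiers, 151 of them through a RefSeq accession and 15 by hand from the description.

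Ages were compared in R 4.3.3 with edgeR 4.0.16 (estimateDisp, glmQLFit, glmQLFTest), TMM factors and no term but age, on genes whose 6 libraries held more than 10 counts in sum. Benjamini-Hochberg adjustment ran over 16643 genes with a threshold of 0.05. The biological coefficient of variation was 18.2%. Normalised counts were scaled to a library of 18566369 counts, and standard errors were taken from the F statistic. The p-values measure the spread between pools, which averages over 10 animals. Ratios with few counts have exact 95% intervals, and floors of 3 counts per age cover counting error only. Alternatives were 4 other scalings, 3 filters, DESeq2 1.42.0, limma-voom (limma 3.58.1), the exact test of edgeR with a common dispersion, a replicate block and leaving out each library. Members, lists and tests were chosen with earlier results of these data known. Genes named were the members, their ligands with any count, the 2 called genes with the largest fold change in each direction of each list among those with a mean of at least 100 normalised counts at the higher age, and the 2 nearest neighbours of each member. Other genes named within a list were chosen after their values were seen. The values of some genes are not reported here. Marker lists covered epithelium, endothelium, mural cells, stroma, developing neurons, neural progenitors, oligodendrocytes, astrocytes, macrophages, erythroid cells, adipocytes and proliferation. Python 3.11.15 was used for tables (pandas 2.3.3), exact tests (scipy 1.17.1) and figures (matplotlib 3.10.9).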

Additional observations from a re-analysis of the deposited data

How the results depend on the processing

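The 5 receptors kept their direction in all 83 alternatives that gave a value and their call in 82. The number called was 4 under filterByExpr and under a mean count above 100, where Avpr1a was not tested, 4 under total counts alone, where Npr2 was not called, and 5 to 5 with each library left out. The pools left out moved the log2 fold change of Avpr1a between -3.02 and -2.43 (adjusted p 0.00722 to 0.0459), a gene with 8 read counts at E15 and 30 in the adult. For the pathway genes reported, 1446 values over the alternatives kept direction and call, 53 lost the call, 11 gained it and 7 turned.

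Under total counts alone, 14 pathway genes were higher in the adult in place of 28, and over all genes 9799 were higher at E15 in place of 5773 and 2292 in the adult in place of 4879. Without the 10 highest genes 3196 were higher in the adult. Log2 fold changes that turned under total counts alone were 0.26 for Jak1, 0.20 for Stam2, 0.20 for Sos1, 0.23 for Foxo4, 0.054 for Prkcd, 0.17 for Pde6d and 0.032 for Gucy1a2. The cause was not tested.

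With each library left out, 79 to 86 pathway genes were called (53 to 60 at E15, 25 to 28 in the adult), with 5009 to 6218 of all genes at E15 and 4327 to 5449 in the adult, and the Npr3 to Npr2 difference was -0.71 to -0.43. With a pseudocount of 1 it was -0.56. The other 4 planned ratios could not be formed, since genes they need were not matched by name.

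Samples of the same number did not deviate together (correlations of -0.0075, -0.011 and -0.039), and no pool correlated best with its own number. The numbers are therefore not taken to pair the pools. With the replicate block, 5 receptors and 83 pathway genes were called (56 at E15, 27 in the adult), 5320 and 4608 of all genes, Avpr1a had an adjusted p of 0.0490, and the exact sign-flip p of the ratio was 0.25, the smallest that 3 pairs can give.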
